A study of Homo sapiens with 6 samples.

Results

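The heat shock, chaperonin and endoplasmic reticulum (ER) chaperone genes are 49 protein-folding genes, picked by symbol from the 58174 rows of the deposited expression table. All 49 symbols had 1 row each, and all 49 passed the filter on low counts that left 19040 genes for testing. By compartment, 30 code for cytosolic proteins or for the heat shock regulator HSF1, 14 for proteins of the ER or for its regulator XBP1, and 5 for mitochondrial proteins. The libraries came from PC9, an established lung adenocarcinoma cell line. In the knockdown group, 3 libraries, the cells carried an antagomir (a chemically modified antisense oligonucleotide) against tsRNA-5001a, a small RNA derived from a transfer RNA. In the control group, also 3 libraries, they carried the negative control antagomir, so an antagomir was present in both groups. Dose, time after treatment and whether each library had a culture of its own are not stated in the labels, so the spread between libraries may be technical. The gene counts do not measure the tsRNA, and its level was not analysed here.

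Chaperones bind unfolded proteins and keep them from clumping. Cytosolic HSP70 proteins take up client chains with the help of J-domain proteins, and pass some of them to HSP90 or to the chaperonin CCT, a barrel-shaped complex that folds actin and tubulin. Damage to cytosolic proteins activates the transcription factor HSF1, which binds heat shock elements. Unfolded protein in the ER activates the unfolded protein response, in which XBP1 and ATF6 act on ER stress response elements and raise ER chaperones. Mitochondria hold their own HSP70, HSP90 and chaperonin, all coded in the nucleus.

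No chaperone gene passed the test: 0 of 49 had an edgeR adjusted p under 0.05, where the share over all genes tested was 1.17% (1.10% higher, 0.0735% lower). At an unadjusted p under 0.05 there were 10 members (20.4%), 3 higher and 7 lower after knockdown. Over all genes tested that share was 16.5%, with 9.77% higher and 6.71% lower. HSPB8, a small heat shock protein gene, came nearest, at 45.0 ± 1.59 CPM (counts scaled to a common library total; SD, n = 3) against 28.4 ± 2.46 in the control, 1.59-fold higher with an edgeR adjusted p of 0.0544. CCT5, a chaperonin subunit gene, stood at 763 ± 8.69 against 1024 ± 38.9 CPM, and AHSA1, the activator of the HSP90 ATPase, at 291 ± 12.5 against 396 ± 12.7 CPM. The ER master chaperone HSPA5 (BiP) was at 718 ± 12.7 against 693 ± 9.87 CPM.

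The width of the intervals says how large a change could have been missed. For 48 of 49 members the 95% interval of the fold change excluded a 2-fold change in either direction, DNAJC3 being the exception. For 30 of 49 members, 61.2%, it lay within 1.5-fold either way, compared with 33.1% of all genes tested. These intervals are per gene and not corrected for the number of genes. The members are abundant, with a median of 7.89 log2 CPM against 3.72 for all genes tested.

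**Figure D1:**
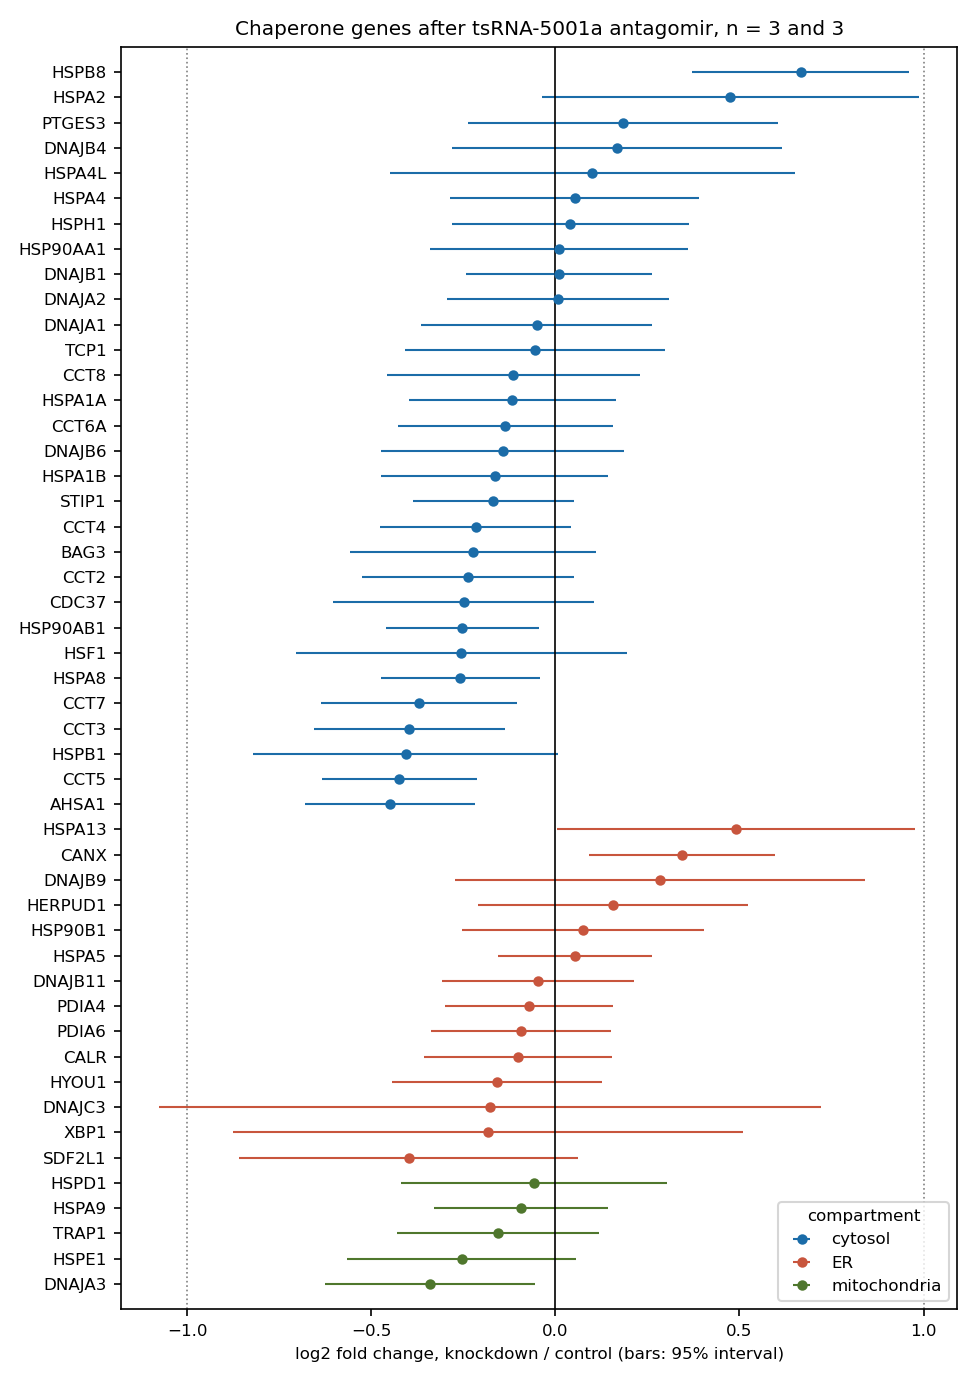
Log2 fold change of each of the 49 genes (x axis, knockdown over control) with its 95% interval, by compartment; dotted lines mark a 2-fold change. HSPB8 at 0.67 and AHSA1 at -0.45 are the extremes, and only the interval of DNAJC3 crosses a dotted line.

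Of the 49 log2 fold changes 33 were below 0, with a median of -0.11, beside 44.1% below 0 and a median of 0.05 over all genes tested. The medians were -0.14 for the cytosol (20 of 30 below 0), -0.06 for the ER (8 of 14) and -0.16 for the mitochondria (5 of 5). These medians depended on the scaling, and that of the ER changed sides of 0 under both scalings that follow. With no scaling beyond library size they were -0.013, 0.064 and -0.033, and all genes then had a median of 0.175. With the trend of each library on abundance removed, they were 0.025, 0.120 and -0.051, and 30 of 49 members were above 0. Over all genes tested the log2 fold change went with mean log2 CPM at a Spearman's rho of -0.30. The members are more abundant than most genes, so the share over all genes is not a like baseline. In unscaled counts the members together took 1.91% to 2.04% of each knockdown library and 1.98% to 2.08% of each control library, so the groups overlapped.

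Total counts were 32342017 to 40066223 per library, and markers of the labelled epithelial cell type were present, with 7 of 7 at a mean of at least 1 TPM (a level scaled for transcript length and library total). Fibroblast markers summed to 43.2 to 62.0 CPM in the knockdown and 38.1 to 45.9 CPM in the control libraries, with 2 of 6 at that level and LUM at 0 counts. For immune markers, 2 of 5 at that level, the sums were 64.2 to 78.8 and 56.7 to 69.1 CPM. For endothelial markers, 2 of 4 at that level, they were 32.9 to 43.1 and 19.4 to 36.45 CPM. Unlike the CPM of single genes, the marker sums were scaled by library total alone. The part of these markers in the chaperone values was not tested, and in such bulk RNA fewer cells of a type and less RNA per cell cannot be told apart.

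RefSeq promoter windows on GRCh38.p14, 250 bases before to 50 after each start site, were found for 47 of 49 members in 66 windows; HSF1 and CCT6A had none. The ER stress response element, searched on both strands as CCAAT, 9 bases of any kind and CCACG, was in 8 of these 66 windows, from 6 genes. It was in 0.0769% of all 35116 windows. The 30-base windows around these matches are shown because those genes are textbook outputs of the unfolded protein response. Capitals mark the match, which in HSP90B1 and CALR reads on the opposite strand. HSP90B1 holds another match further upstream, which is not shown.
HSPA5: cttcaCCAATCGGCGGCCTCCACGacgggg
HSP90B1: gggtgCGTGGTGCGGCGCGATTGGtgggtt
CALR: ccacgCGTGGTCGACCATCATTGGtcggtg
CANX: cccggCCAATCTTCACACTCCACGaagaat
PDIA6: ccggaCCAATGAGCCGCAGCCACGgcttgg
XBP1: gctggCCAATCGCGGAGGGCCACGaccgta
They lie at chr9:125241385-125241414 for HSPA5, chr12:103930316-103930345 for HSP90B1, chr19:12938379-12938408 for CALR, chr5:179698773-179698802 for CANX, chr2:10812847-10812876 for PDIA6 and chr22:28800597-28800626 for XBP1. The HSPA5, PDIA6 and XBP1 genes are on the minus strand, the others on the plus strand. The 6 genes split evenly, 3 below 0 and 3 above, with a median log2 fold change of -0.02. Their range ran from -0.18 for XBP1 to 0.34 for CANX.

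A heat shock element of 3 units, searched on both strands as GAA, TTC and GAA in turn with 2 bases of any kind between units, was in 6 of the 66 windows, from 6 genes, and in 0.490% of all windows. Of these genes 5 are shown here, with the match nearest the start site in capitals. HSPA8, HSP90AB1 and HSPD1 each hold another match further upstream, which is not marked. In HSPD1 that match overlaps the one in capitals. In DNAJA1 the match lay after the start site and is not printed.
HSPA8: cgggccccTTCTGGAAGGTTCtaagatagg
HSP90AB1: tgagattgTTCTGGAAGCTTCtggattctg
HSP90AA1: gagggttcTTCCGGAAGGTTCgggaggctt
DNAJB6: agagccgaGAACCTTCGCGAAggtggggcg
HSPD1: attttctgGAAAGTTCTGGAAccgagcgag
They lie at chr11:123062170-123062199 for HSPA8, chr6:44247823-44247852 for HSP90AB1, chr14:102087111-102087140 for HSP90AA1, chr7:157336865-157336894 for DNAJB6 and chr2:197500059-197500088 for HSPD1. The genes HSPA8, HSP90AA1 and HSPD1 are on the minus strand. The 6 genes had a median log2 fold change of -0.10, from -0.26 for HSPA8 to 0.01 for HSP90AA1. The 2-unit form, GAA and TTC in either order with the same spacing, overlaps the longer one. It was in 20 of the 66 windows, from 19 genes, and in 13.5% of all windows. A match describes the letters only and was not shown to be a binding site here.

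Longer stretches are given for the 2 genes most used as reporters of the responses. Upstream of HSPA5, 240 bases on the minus strand of chr9:125241354-125241593 carry the element in capitals.
HSPA5: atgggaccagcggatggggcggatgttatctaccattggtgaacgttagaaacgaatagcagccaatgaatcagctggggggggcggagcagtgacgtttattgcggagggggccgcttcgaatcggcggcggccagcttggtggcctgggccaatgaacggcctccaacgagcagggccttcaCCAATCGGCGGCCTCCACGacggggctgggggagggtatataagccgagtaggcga
Upstream of HSPA1B, 240 bases on the plus strand of chr6:31827488-31827727 carry a 2-unit heat shock element in capitals.
HSPA1B: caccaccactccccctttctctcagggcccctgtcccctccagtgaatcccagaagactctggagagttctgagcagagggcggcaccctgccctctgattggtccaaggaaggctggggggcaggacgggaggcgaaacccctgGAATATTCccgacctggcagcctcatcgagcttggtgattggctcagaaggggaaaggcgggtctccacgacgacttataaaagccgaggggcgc

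Among cytosolic genes the first is the regulator. HSF1 stood at 91.9, 58.3 and 66.2 CPM in knockdown libraries 1 to 3 and at 76.2, 79.3 and 103 CPM in control libraries 1 to 3. The groups overlapped, and its log2 fold change was -0.26 with a 95% interval from -0.71 to 0.19.

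HSPA1A and HSPA1B are the stress-inducible HSP70 genes and the usual readout of heat shock. Their coding sequences of 1926 bases each differ at 4 bases, so the counting could have split reads between them. HSPA1A was at 760, 578 and 700 CPM after knockdown and at 726, 708 and 776 CPM in the controls. HSPA1B was at 730, 525 and 669 CPM against 685, 717 and 754 CPM. Knockdown library 2 was the lowest of the 6 for both. The ratio of HSPA1A to HSPA1B stayed between 0.987 and 1.10 in every library, and their sum was 1320 ± 197 against 1455 ± 64.5 CPM. The 95% interval of the log2 fold change was -0.40 to 0.16 for HSPA1A and -0.47 to 0.14 for HSPA1B, which leaves out a 1.5-fold rise.

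The constitutive HSP70 gene HSPA8 (chromosome 11, 123057489 to 123063230, minus strand) was lower in each knockdown library than in any control. It stood at 1219, 1156 and 1168 CPM against 1320, 1485 and 1433 CPM, a log2 fold change of -0.26 (SE 0.09; edgeR adjusted p 0.239). That difference depended on the scaling: it was -0.134 with no scaling beyond library size, 0.002 with the abundance trend removed and -0.017 in the deposited TPM. The share of genes whose groups did not overlap was 10.8% on the lower side and 13.4% on the higher side over all genes tested, beside 10 and 4 of the 49 members (20.4% and 8.16%). HSPA4 and HSPH1, nucleotide exchange factors of the HSP110 type, had log2 fold changes of 0.05 and 0.04. HSPA4L, a relative of low abundance at 7.45 ± 0.599 CPM in the control, had 0.10. HSPA2, an HSP70 gene best known from the testis, was at 7.55, 4.47 and 6.18 CPM against 4.60, 4.31 and 4.19 CPM. Knockdown library 2 was within the range of the controls and the other two were above it, with a log2 interval from -0.04 to 0.99.

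J-domain proteins start the ATPase cycle of HSP70. DNAJB1, which HSF1 induces with HSPA1A, was at 243, 261 and 225 CPM after knockdown and at 245, 228 and 251 CPM in the controls, a log2 fold change of 0.01 (interval -0.24 to 0.26). DNAJA1, DNAJA2 and DNAJB6 had log2 fold changes of -0.05, 0.01 and -0.14, and the low-abundance gene DNAJB4 had 0.17. All of these overlapped between groups.

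HSP90 matures kinases and steroid receptors. Its stress-inducible gene HSP90AA1 was at 1653, 2546 and 2253 CPM after knockdown and at 2232, 2007 and 2172 CPM in the controls. Knockdown library 1 was the lowest and knockdown library 2 the highest of all 6, and the means were 2151 ± 455 and 2137 ± 116 CPM. The constitutive gene HSP90AB1 was at 1662, 1727 and 1600 CPM against 1880, 2000 and 2063 CPM. Every knockdown library was below every control, with a log2 fold change of -0.25 (SE 0.09; edgeR adjusted p 0.233). For HSP90AB1, too, it was smaller under other settings, at -0.129 by library size alone and -0.027 in the deposited TPM, and it turned to 0.037 with the abundance trend removed. Whether the 2 genes differed in their response was not tested.

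Co-chaperones steer HSP90. AHSA1 (chromosome 14, 77457870 to 77469474, plus strand), which speeds its ATPase, was at 290, 303 and 278 CPM after knockdown and at 384, 397 and 409 CPM in the controls. The groups did not overlap, and the level was 1.36-fold lower after knockdown (log2 fold change -0.45, SE 0.10, edgeR adjusted p 0.0911). STIP1, the adaptor that links HSP70 to HSP90, was at 460, 452 and 462 CPM against 496, 525 and 525 CPM, again with no overlap, at a log2 fold change of -0.17. The value for STIP1 turned to 0.014 with the abundance trend removed and to 0.056 in the deposited TPM. CDC37, which brings kinases to HSP90, and PTGES3, the p23 co-chaperone, had -0.25 and 0.18 and overlapped.

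The chaperonin CCT is built from 8 different subunits, each from its own gene. All 8 log2 fold changes were below 0, with a median of -0.23, beside 44.1% below 0 over all genes tested. In 3 of 8 genes (37.5%) the groups did not overlap, all lower, beside 10.8% of all genes tested. CCT5 (chromosome 5, 10249921 to 10266412, plus strand) was at 773, 761 and 756 CPM after knockdown and at 981, 1056 and 1034 CPM in the controls (log2 fold change -0.42, SE 0.09, edgeR adjusted p 0.0814). CCT3 was at 527, 451 and 490 CPM against 583, 687 and 662 CPM, and CCT7 at 352, 285 and 339 CPM against 404, 434 and 425 CPM. These had log2 fold changes of -0.40 and -0.37, with edgeR adjusted p of 0.160 and 0.188. With the abundance trend removed the log2 fold changes were -0.194 for CCT5, -0.205 for CCT3 and -0.214 for CCT7. In the deposited TPM they were -0.275, -0.195 and -0.187, in the same order. There CCT5 was at 620, 634 and 538 against 885, 560 and 756 TPM. CCT7 was at 351, 305 and 355 against 425, 349 and 378 TPM. The groups of CCT5 and CCT7 thus overlapped in the deposited TPM, while those of CCT3 did not.

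The other 5 subunits overlapped between groups. CCT2 and CCT4 had log2 fold changes of -0.24 and -0.22, and CCT6A, CCT8 and TCP1, the first subunit to be named, had -0.14, -0.11 and -0.06. Summed over the 8 genes the level was 3318, 3619 and 3355 CPM after knockdown and 3903, 4385 and 4173 CPM in the controls, a ratio of 0.826. Beside this, the ratio was 0.888 for the other 22 cytosolic members and 1.01 for the ER members. The ER sums, 4055 against 4016 CPM, include CANX at 610 against 481 CPM, while 8 of 14 ER members were below 0. All these sums are TMM-scaled, and no test compared them. With no scaling beyond library size, the CCT median was -0.10 with 6 of 8 below 0. With the abundance trend removed it was -0.08, also with 6 of 8 below 0, and in the deposited TPM 4 of 8 were below 0.

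**Figure D2:**
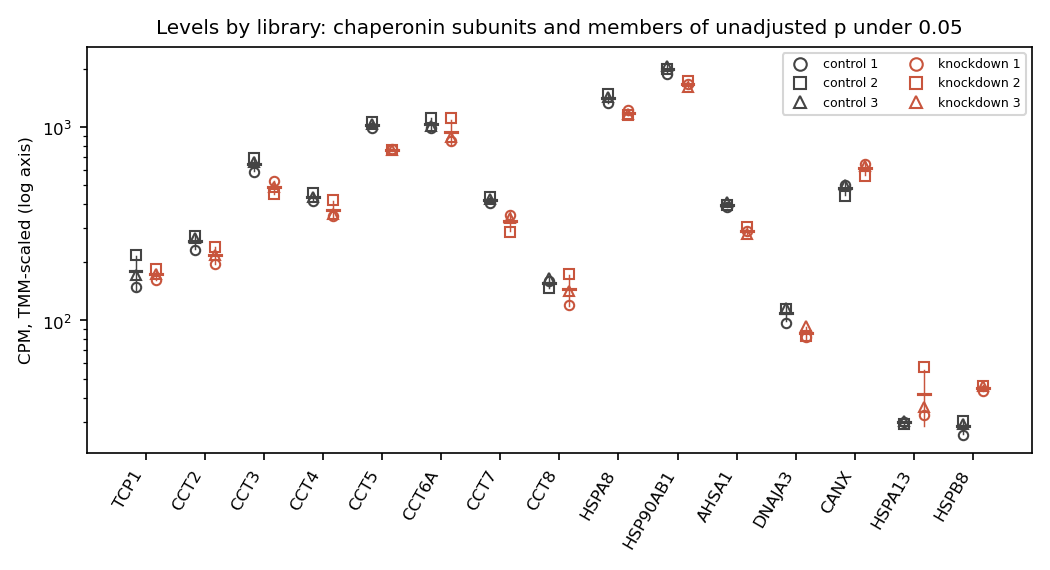
CPM (log axis) of the 8 CCT subunit genes and of the other members with an unadjusted p under 0.05; symbols are libraries, horizontal lines group means and vertical lines SD. CCT3, CCT5, CCT7, HSPA8, HSP90AB1, AHSA1 and DNAJA3 have all knockdown libraries below all controls, and CANX, HSPA13 and HSPB8 have them above.

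Small heat shock proteins hold unfolded chains without ATP. HSPB1 (HSP27) was the most abundant member per transcript length, at 3237 ± 253 TPM in the controls by the deposited values. It stood at 1705, 1059 and 1537 CPM after knockdown and at 1629, 2146 and 1928 CPM in the controls. Knockdown library 2 was far below the rest, the groups overlapped, and the log2 fold change was -0.41 (interval -0.82 to 0.01).

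HSPB8 (chromosome 12, 119178642 to 119221131, plus strand) works with BAG3 and HSP70 to clear misfolded proteins by autophagy. It was at 43.2, 46.1 and 45.8 CPM after knockdown and at 25.6, 30.4 and 29.1 CPM in the controls. The gap between the groups was larger than the spread within either, with a log2 fold change of 0.67 (SE 0.13; interval 0.37 to 0.96). It was past an adjusted p of 0.05 under 6 of 19 other settings, among them DESeq2 (adjusted p 0.00370), and short of it in all 6 fits that left out a library. Over the 19 settings its adjusted p ran from 0.00370 to 0.234 and its log2 fold change from 0.60 to 0.86. Its partner BAG3, another HSF1 target, was at 155, 111 and 128 CPM against 148, 147 and 166 CPM, a log2 fold change of -0.22 with overlapping groups.

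In the ER the regulator XBP1 varied widely within both groups. It stood at 181, 110 and 91.0 CPM after knockdown and at 162, 180 and 92.3 CPM in the controls, a log2 fold change of -0.18 with an interval from -0.88 to 0.51. Gene counts do not separate its spliced from its unspliced form.

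HSPA5 (chromosome 9, 125234853 to 125241330, minus strand), the ER HSP70 that holds the stress sensors inactive, was at 712, 733 and 710 CPM after knockdown and at 682, 695 and 701 CPM in the controls. The groups did not overlap, but the fold was 1.04, and the log2 interval from -0.16 to 0.26 leaves out a 1.5-fold change either way. HSP90B1, the ER HSP90, was at 390, 568 and 473 CPM against 458, 431 and 470 CPM (log2 fold change 0.07). HYOU1, an HSP110-type partner of HSPA5, had -0.16.

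HSPA13, a small microsome-associated HSP70 relative, was at 32.4, 57.3 and 36.0 CPM after knockdown and at 29.8, 29.2 and 30.3 CPM in the controls. All knockdown libraries were higher, library 2 by far the most, and the log2 fold change was 0.49 (SE 0.21; edgeR adjusted p 0.301). Without knockdown library 2 it was 0.19, the lowest of the 19 other settings, which reached 0.63.

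The lectin chaperones CANX and CALR hold glycoproteins during folding. CANX (chromosome 5, 179678628 to 179730925, plus strand) was at 642, 560 and 629 CPM after knockdown and at 500, 440 and 502 CPM in the controls. The groups did not overlap, with a log2 fold change of 0.34 (SE 0.11; edgeR adjusted p 0.194). The deposited TPM gave the opposite direction for CANX, at 342 ± 73.1 after knockdown and 429 ± 60.7 in the control, a difference of -0.34 on the log2(TPM + 1) scale. CALR was at 884 ± 102 against 948 ± 35.0 CPM (log2 fold change -0.10).

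The ER J-domain genes DNAJB9, DNAJB11 and DNAJC3, which regulate HSPA5 and the unfolded protein response, had log2 fold changes of 0.28, -0.05 and -0.18. In knockdown library 1 the level of DNAJC3 was 12.6 CPM, below the range of 33.8 to 47.0 CPM that held the remaining 5. The disulfide isomerases PDIA4 and PDIA6 had -0.07 and -0.09, and HERPUD1, which serves ER-associated degradation, had 0.16. SDF2L1, a co-chaperone of the HSPA5 complex, was at 30.2, 19.7 and 29.8 CPM against 30.8, 41.4 and 33.0 CPM. Its groups did not overlap, and the log2 fold change was -0.40 (interval -0.86 to 0.06). In the deposited TPM the groups of SDF2L1 overlapped, at 61.1, 43.8 and 64.1 against 59.3, 69.1 and 61.1 TPM.

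All 5 mitochondrial genes were below 0 in log2 fold change, but 3 of 5 were with no scaling beyond library size and 1 of 5 in the deposited TPM. Of the 5, 2 (40%) had groups that did not overlap, both lower, beside 10.8% of all genes tested. In the deposited TPM both overlapped. There DNAJA3 was at 64.7, 75.7 and 83.2 against 73.3, 64.1 and 71.4 TPM, and TRAP1 at 167, 151 and 194 against 176, 162 and 171 TPM. HSPA9 (mortalin), the mitochondrial HSP70, was at 363, 390 and 384 CPM after knockdown and at 378, 406 and 429 CPM in the controls, a log2 fold change of -0.09. Its J-domain partner DNAJA3 was at 82.1, 82.9 and 93.3 CPM against 97.3, 114 and 116 CPM, a log2 difference of -0.34 (SE 0.13; edgeR adjusted p 0.240), but 0.092 in the deposited TPM. TRAP1, the mitochondrial HSP90, had -0.16 and touched the controls without crossing them.

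HSPD1 and HSPE1 code for the chaperonin HSP60 and its lid HSP10, and are transcribed in opposite directions from neighbouring starts. HSPD1 was at 364, 565 and 435 CPM after knockdown and at 457, 483 and 482 CPM in the controls, so that the knockdown libraries lay on both sides of all controls. HSPE1 was at 77.8, 97.1 and 84.7 CPM against 93.0, 114 and 103 CPM. The log2 fold changes were -0.06 and -0.25. Of the exonic bases of HSPE1, 23.9% are shared with HSPD1 or with the read-through gene HSPE1-MOB4, so its count is uncertain.

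**Figure D3:**
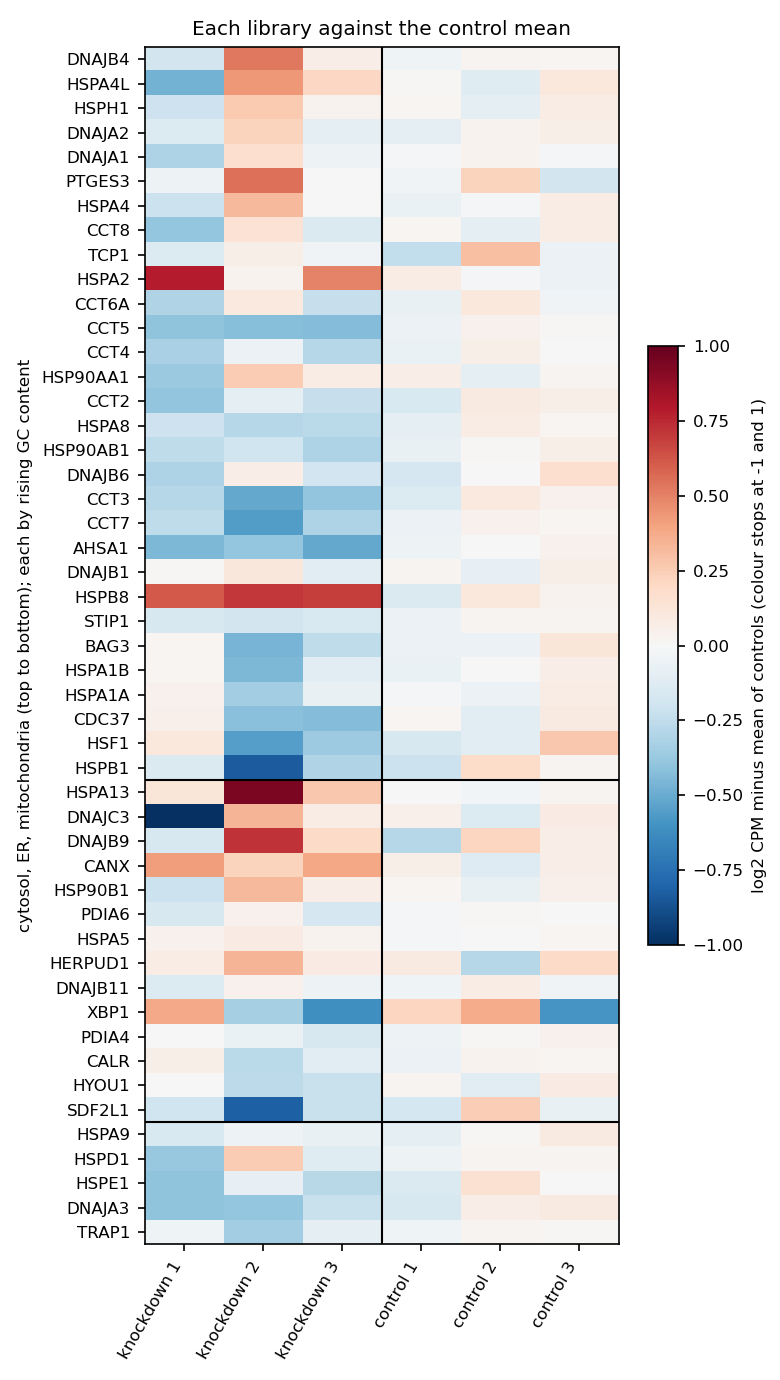
Log2 CPM of each member minus its mean over the controls, by library; blocks from top to bottom are cytosol, ER and mitochondria, each ordered by rising transcript GC content. AHSA1, CCT3, CCT5 and CCT7 are low and HSPB8 is high in all 3 knockdown libraries, while knockdown libraries 1 and 2 differ from each other along the GC order.

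Chaperone levels also differed among the knockdown libraries themselves. Taken as log2 CPM minus the mean of the other 2 libraries of the group, the members' deviations had an SD of 0.416 in knockdown library 1, 0.375 in library 2 and 0.177 in library 3. In the control libraries this SD was 0.137 to 0.181. Over all genes tested it was 0.471 to 0.595 in the knockdown and 0.536 to 0.598 in the control libraries, so the groups overlapped there. Transcript GC content moved with these deviations in knockdown libraries 1 and 2. Spearman's rho over the 49 members was 0.78 in knockdown library 1, -0.80 in knockdown library 2 and 0.11 in knockdown library 3, and between -0.24 and 0.12 in the control libraries. Over 18978 tested genes with a GC value the rho was 0.55, -0.62 and 0.23 in the knockdown libraries. The deviations within a group share libraries, so their signs are linked, and the values are a description.

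HSPB1, SDF2L1 and HSF1, at 64.5%, 65.5% and 63.9% GC, were low in knockdown library 2. The genes HSPA13, DNAJB4 and HSPA4L, at 34.9%, 33.1% and 38.1% GC, were high there. Across members the log2 fold change went with GC content at a rho of -0.60, compared with -0.16 over all genes. With the GC trend of each library removed, an alternative chosen after seeing the data, 3 of 49 members passed. HSPB8 rose (log2 fold change 0.67, edgeR adjusted p 0.0351), while AHSA1 fell by 0.46 (adjusted p 0.0359) and CCT5 fell by 0.48 (adjusted p 0.0452). In that fit 457 of the 19040 genes passed, 326 higher and 131 lower, and 40 of 49 members were below 0. DESeq2 called the same 3 members, with 701 genes in all. Over the 19 settings the adjusted p ran from 0.0185 to 0.332 for AHSA1 and from 0.0278 to 0.345 for CCT5. The part of GC content in the other differences was not tested.

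**Figure D4:**
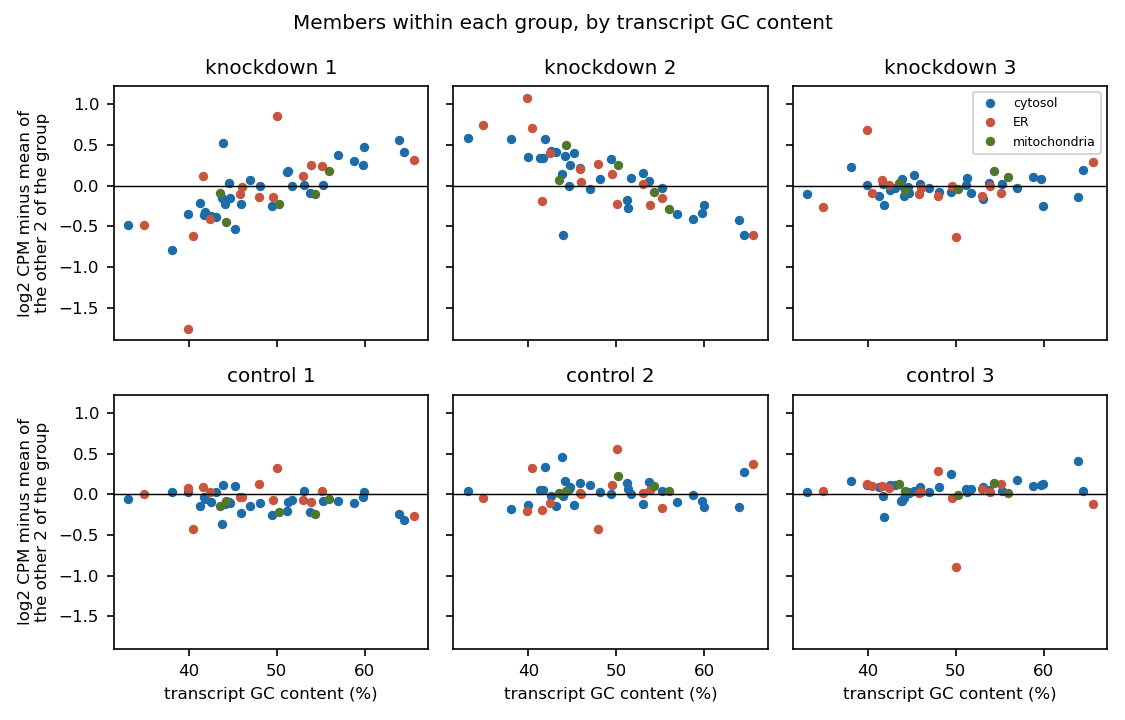
Log2 CPM of each member minus the mean of the other 2 libraries of its group (y axis) against transcript GC content in percent (x axis), 1 panel per library. The points climb with GC in knockdown 1 and descend in knockdown 2, with rho of 0.78 and -0.80, while rho in the other 4 panels is between -0.24 and 0.12.

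Other folding genes of each compartment gave no calls either, beside 1.17% called over all genes tested. At that share, lists of this length would hold few calls or none. Of 36 further cytosolic chaperone genes 0 passed, with a median log2 fold change of 0.01. The 2 with the lowest p were FKBP5, an HSP90-binding immunophilin gene, at 11.6, 16.7 and 15.6 against 9.76, 9.08 and 11.15 CPM, and PFDN5, a subunit of the prefoldin complex that feeds CCT, at 147 ± 13.0 against 189 ± 18.9 CPM. Of 36 further genes of ER folding and the unfolded protein response 0 passed, with a median of 0.04. SELENOS, a gene of ER-associated degradation, was at 19.8 ± 0.952 against 13.1 ± 1.37 CPM, and the ER oxidase gene ERO1B at 18.1 ± 5.03 against 11.5 ± 0.356 CPM. Of 24 further mitochondrial import, folding and protease genes 0 passed, and the median was -0.18. Of these genes 20 (83.3%) were below 0, beside 44.1% of all genes tested. These values are from the edgeR fit with TMM scaling alone, and the signs of the mitochondrial members depended on the scaling. The lowest p were those of PPIF, a mitochondrial cyclophilin, at 304 ± 12.4 against 398 ± 21.1 CPM, and the peptidase gene PITRM1, at 85.0 ± 3.99 against 111 ± 1.88 CPM.

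Per transcript length, in the deposited TPM of the controls, HSPB1 was followed by HSPA8 at 1512 ± 44.8, HSP90AB1 at 1204 ± 79.8 and HSP90AA1 at 1036 ± 129 TPM. The libraries of HSP90AB1, 1122 to 1282 TPM, and of HSP90AA1, 891 to 1139 TPM, overlapped. CALR at 856 ± 36.5 led the ER members and HSPD1 at 327 ± 8.83 the mitochondrial ones. The CCT subunits ranged from 135 ± 18.0 TPM for CCT8 to 734 ± 164 TPM for CCT5, with CCT6A at 680 ± 3.42 TPM, although each complex holds the subunits in equal numbers. HSPA4L at 1.55 ± 0.263 and HSPA2 at 3.05 ± 0.587 TPM were the lowest.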

How the data were processed

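Per the labels' protocols, RNA was sequenced on an Illumina platform and the authors counted reads per gene after mapping to a reference genome. The build in the submitters' processing notes is hg19, but 96.8% of 57836 shared genes have the coordinates of GENCODE 29 on GRCh38, the build used for genes here. Neither labels nor headers name an aligner, a counter or the use of strand. Per the file headers, each library has counts (whole numbers), TPM and FPKM. FPKM was not used, and the deposited TPM served only for levels per length and as an alternative on the log2(TPM + 1) scale.

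Counts were filtered with filterByExpr (minimum 10), TMM-scaled and tested with edgeR 4.0.16 in R 4.3.3 (quasi-likelihood, group as the only term), with Benjamini-Hochberg adjustment over all 19040 genes at 0.05. The code was tested on simulated data. Standard errors were derived from each gene's log2 fold change and F value, and 95% intervals from these and the fitted degrees of freedom. GC content is that of the longest protein-coding transcript in GENCODE 29, or of the longest transcript where a gene has no protein-coding one. Libraries of the same group differed by more than sampling noise (chi-square over its degrees of freedom 29.9 to 74.0), so none was counted as a duplicate.

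The members and lists were chosen with earlier results of these data known. Library values are printed for members with a p under 0.05 and for a set list of stress readouts, with other members added after their values were seen; the 2 lowest p name genes of the wider lists. Alternatives were other scalings and filters, DESeq2 1.42.0, limma-voom in limma 3.58.1, a replicate block, leaving out each library, and removal of trends.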

Additional observations from a re-analysis of the deposited data

How the results depend on the processing

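Of the 49 members, 0 passed with edgeR, and 10 had an unadjusted p under 0.05. HSPB8 alone passed with upper-quartile scaling, library size only, at least 1 CPM in 3 libraries and deposited TPM (1 each); 3 members passed with DESeq2 and 3 with the GC trend removed. Leaving out any library gave 0. Against 223 genes over the whole table there were 147 with no filter, 701 with DESeq2, 34 with the replicate block, 132 with the abundance trend removed, 397 with deposited TPM, 457 with the GC trend removed, and 64 to 114 when a library was left out.

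Medians of log2 fold change differed under other settings as follows. With library size only they were -0.013 (cytosol), 0.064 (ER), 0.011 (all members), -0.101 (CCT) and -0.033 (mitochondria). With the abundance trend removed they were 0.025, 0.120, 0.037, -0.078 and -0.051. With deposited TPM, where the median of all genes was 0.208, they were 0.078, 0.139, 0.101 and -0.005, and 0.065 for the mitochondria. Leaving out a library put the ER median between -0.086 and -0.005. Without knockdown library 1 (-0.019), knockdown library 3 (-0.011) or control library 2 (-0.005), 7 of 14 ER members were below 0. The cause was not tested. The replicate block called 0 members. Deviations of libraries that share a number correlated at 0.008, -0.079 and -0.026. That shows no shared deviation by number, but cannot tell whether the libraries were paired by design. Summing HSPA1A with HSPA1B, or adding pseudogene counts, changed no call.

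With 3 libraries a group, the intervals of 19 of 49 members reach 1.5-fold in a direction or both, so a change of that size is not excluded for them.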

Other observations

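CANX and HERPUD1 had the most uneven relation between deposited counts and TPM. The length implied by count over TPM, relative to the median gene of the library, differed 2.22-fold between the highest and the lowest library for CANX and 2.04-fold for HERPUD1, against a median of 1.065-fold over the 49 members. For CANX its mean was 1.41 in the knockdown and 0.732 in the control libraries. HERPUD1 had a log2 fold change of 0.16 in counts and -0.21 in TPM. For CCT5 the TPM ranged from 560 to 885 over the controls, while its CPM ranged from 981 to 1056.

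Of the 49 members, 23 share exonic bases with another gene of GENCODE 29, and 6 share at least 20% of them. CCT5 shares 30.1% with AC012640.4, whose counts were at most 0.0464% of its own. TRAP1 shares 29.3% with DNASE1 and AC006111.2, whose counts came to 29.1% to 49.6% of its own. Pseudogenes named after a member number 85, from 16 members. Their summed counts were largest for HSPD1, at 1.35% to 3.48% of the parent gene.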
